A study of Rattus norvegicus with 18 samples.

Results

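The cytosolic ribosomal proteins were read by 61 probe sets of 42 gene symbols, out of 8799 probe sets on the array. A member is every probe set whose only gene symbol in the platform annotation begins with Rpl or Rps followed by a digit, P or a, without the S6 kinases (Rps6k) and without symbols of pseudogenes (-ps). The large subunit had 43 probe sets of 30 symbols and the small subunit 18 probe sets of 12 symbols. Of the 42 symbols, 5 name copies or paralogs of a ribosomal protein gene (Rpl19l4, Rpl36al1, Rpl3l, Rplp1l3 and Rps27l). A further 38 probe sets carried several ribosomal protein symbols and were no members, and the stalk proteins Rplp1 and Rplp2 and the ubiquitin fusion Rps27a had no probe set of a single symbol.

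The tissue was the suprachiasmatic nucleus (SCN), the hypothalamic clock, of adult male Long-Evans rats kept in 12 h of light and 12 h of darkness and then, from circadian time (CT) 12, in constant darkness. Sampling began at the next projected lights-on, CT 0, and the time points analysed here are 0, 6, 12 and 18 h (day 1) and 24, 30, 36 and 42 h (day 2), so that CT 0, CT 6, CT 12 and CT 18 came once on each day. RNA of 5 rats was extracted rat by rat and pooled into 1 sample for each time point, and there was no other treatment or genotype. Rat U34A GeneChips gave 18 arrays, 10 in a first run (the 24 h and 36 h points have an array a and an array b) and 8 in a technical repeat, and n below is 8 pools unless stated.

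A cytosolic ribosome joins a small subunit, which binds the messenger RNA and checks the codon, to a large subunit, which forms the peptide bond. Its proteins are needed in near equal numbers, and their messenger RNAs are among the most abundant of any cell. Many of these messages begin with a C followed by a run of pyrimidines, the terminal oligopyrimidine (TOP) start, through which mTOR signalling sets their translation. Rps6, a protein of the small subunit, is a phosphorylation target of the S6 kinases, and that phosphorylation is widely used as a readout of mTOR activity in the SCN.

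RefSeq's promoter table for the rat assembly GRCr8 held 37 of the 42 member genes. In 11 of the 37 genes (29.7%) the start base was a C followed by at least 4 more pyrimidines, against 2.63% of all 33469 promoters of the table. These 11 were Rpl14, Rpl17, Rpl19, Rpl22, Rpl31, Rpl35, Rpl35a, Rpl39, Rplp0, Rps15 and Rps3a. The windows below show the last 20 bases before the annotated start and the first 20 from it. They are of 6 genes with such a start and 3 without one at the annotated base, whose values are described further on. Whether the messages of the SCN begin at the annotated base was not tested, so a gene without the run here may still have a TOP start. Capitals mark the pyrimidine run that begins at the annotated start base.
Rpl19, chr10:83519044-83519083, plus strand: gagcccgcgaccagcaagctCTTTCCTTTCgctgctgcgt
Rpl22, chr5:168117941-168117980, plus strand: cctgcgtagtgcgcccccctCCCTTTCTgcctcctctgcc
Rpl31, chr9:49143091-49143130, plus strand: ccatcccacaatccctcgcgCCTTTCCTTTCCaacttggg
Rplp0, chr12:46718371-46718410, minus strand: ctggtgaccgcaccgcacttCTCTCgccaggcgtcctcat
Rps15, chr7:10068096-10068135, minus strand: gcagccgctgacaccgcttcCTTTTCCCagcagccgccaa
Rps3a, chr2:173827023-173827062, minus strand: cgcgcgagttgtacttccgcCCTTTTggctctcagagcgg
Rpl3, chr7:113507971-113508010, minus strand: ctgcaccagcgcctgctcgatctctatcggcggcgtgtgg
Rpl11, chr5:153560783-153560822, minus strand: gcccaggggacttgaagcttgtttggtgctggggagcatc
Rps6, chr5:106420521-106420560, minus strand: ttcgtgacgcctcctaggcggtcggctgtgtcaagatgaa

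Allowing the C to lie within 10 bases of the annotated start and asking for at least 6 more pyrimidines, 20 of the 37 genes (54.1%) had such a run, against 11.2% of all promoters. Over the whole window of 250 bases before to 50 after the start, on either strand, CTTCC was present in 34 of the 37 (91.9%, all promoters 70.1%), TTCCGG in 13 (35.1%, all 15.0%) and CTTTCC in 18 (48.6%, all 26.4%). CTTTT was in 24 (64.9%, all 55.9%). None of these motifs contains another, but they can overlap, as CTTCC and TTCCGG share TTCC. The 14 tested probe sets of the 11 genes with the strict start had a median CT 12 minus CT 0 difference of 0.18 on the log2 scale and the 37 of the other matched genes 0.03. Their median day 2 minus day 1 differences were -0.14 and -0.11. These groups rest on the annotated starts alone, and the differences between them were not tested.

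Of the 61 member probe sets, 58 lay above the level filter (a geometric mean intensity over the pools above 121) and were tested, 40 of the large and all 18 of the small subunit. The 3 others were a probe set of Rpl3l, the paralog known from muscle, with a mean intensity of 51.1, the only probe set of Rpl5, which carries the 5S RNA into the large subunit (51.7), and that of Rplp1l3, a copy of a stalk protein gene (16.7). Mean intensities of the tested members ran from 165 (Rpl30) to 32481 (a probe set of Rpl23), with a median of 2366. Intensities of different probe sets depend on their probes and do not rank the messages.

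The arrays differed in median intensity, in control ratios and in marker sums. The median intensity was 136.5 to 152.3 on the arrays of the first run and 107.9 to 127.6 on those of the technical repeat. The log2 ratio of the 3' to the 5' control probe set of β-actin is a sign of how complete the copied RNA was. It was 4.38 on the first-run 18 h array and 4.08 on the first-run 0 h array, and the other 16 arrays had 1.01 to 2.91. The same ratio for Gapdh did not follow it, with the highest value of all arrays on the 18 h array (5.14) and the lowest on the first-run 0 h array (3.10). On the 18 h array the summed intensity of the microglia and immune markers (7 of 7 listed on the array, 4 above the filter) was 1650, where the first run spanned 751 to 1650 and the technical repeat 684 to 1000. The summed pan-neuronal markers (6 of 8 listed on the array, 5 above the filter) were 9160 there, in a range of 9160 to 14233 in the first run and 15843 to 19423 in the repeat. Vessel markers (5 of 7 on the array, 3 above the filter) summed to 5224 there, within 2129 to 5622 in the first run but above the 2295 to 3094 of the repeat, and those of neighbouring hypothalamus (9 of 10, 8 above the filter) to 12334, within 6707 to 12707 and above 7226 to 8484. The other 4 lists were neither lowest nor highest of the first run there, but 3 of them lay outside the repeat's range. SCN neuron markers summed to 15360 (first run 12076 to 20954, repeat 9831.5 to 11219). Astrocyte markers summed to 48365 (first run 41239 to 52741, repeat 35770 to 43751). Oligodendrocyte markers summed to 32278.5, within 25268 to 40619 in the first run and below the 36689 to 43920 of the repeat. Those of choroid plexus with ependyma, at 4171, lay within the repeat's 3604 to 4858. The runs themselves differed in these sums. All first-run arrays lay above the repeat's range for SCN neuron markers and below it for pan-neuronal markers. A sum outside the repeat's range is thus not particular to the 18 h array. Of the SCN neuron markers, 9 of 15 were on the array and 5 passed the filter, among them Avp, Sst and Calb1; Vip had 30.8 to 78.6 across the pools, under the filter, and Lhx1 and Rorb lay at the floor on 10 and on 9 of the 18 arrays. In pooled tissue, fewer cells of a type and less RNA per cell cannot be told apart.

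Many ribosomal protein probe sets were high on the same array. On the first-run 18 h array the median member lay 0.47 on the log2 scale above its own mean over the 18 arrays, 0.47 in the large and 0.46 in the small subunit, and 49 of 58 members lay above their mean, against 51.8% of all 4370 tested probe sets. The next highest were the first-run 0 h and 30 h arrays at 0.18 each. The lowest was the technical repeat at 0 h, with a median of -0.29 and 13 of 58 members above their mean (all 48.5%). The same 18 h pool read in the technical repeat had a member median of -0.02, with 27 of 58 above (all 52.7%). Values centred over all 18 arrays also hold the members' lower median in the repeat. Centred on the repeat's own means, its 18 h array had a member median of 0.11, with 41 of 58 above (all 57.8%). The part of the control ratios and of the marker sums in the member values was not tested.

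**Figure D1:**
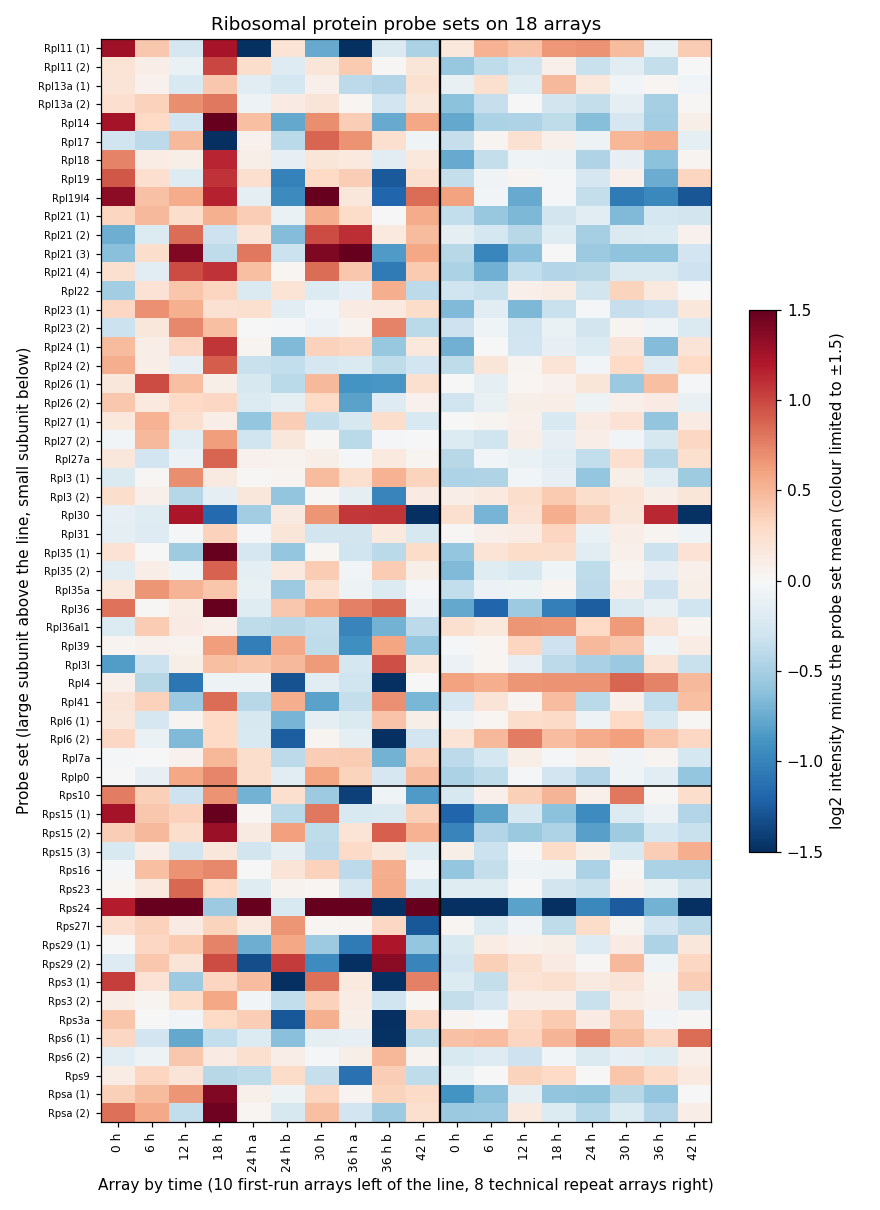
Each row is 1 of the 58 tested ribosomal protein probe sets (numbers in brackets separate probe sets of a gene) and each column 1 of the 18 arrays, coloured by log2 intensity minus the row's mean. The first-run 18 h column is mostly red, with 49 of 58 rows above their mean, and the technical repeat 0 h column mostly blue, with 13 of 58.

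Pairs of members were only weakly correlated. Over the 16 run means, centred within each run, the 1653 pairs of members had a median Pearson correlation of 0.25 and 70.7% of the pairs were above 0, against a median of 0.00 and 50.2% for all pairs of tested probe sets. Pairs within the large subunit had a median of 0.26, pairs within the small subunit 0.25 and pairs of 1 large and 1 small protein 0.23. For the proteasome the median was 0.09 (61.0% above 0) and for the respiratory chain and ATP synthase 0.08 (58.7%). The median for members was 0.28 within the first run and 0.24 within the repeat, each over 8 points. All pairs share arrays, pools and scaling, so these values carry no p.

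The 8 pools, averaged over both runs, gave median member values around their means of -0.07, -0.02, 0.05 and 0.26 at 0, 6, 12 and 18 h and of -0.15, 0.08, -0.18 and 0.02 at 24, 30, 36 and 42 h. The 18 h pool was thus the high one and the 36 h pool the low one. The 18 h pool was the highest of the 8 for 29 of 58 members (all tested 18.2%) and the 36 h pool the lowest for 21 of 58 (all 14.8%). The runs shared this profile only in part. Centred within the run, the first run had 0.40 at 18 h, -0.21 at 24 h and -0.26 at 36 h, and the technical repeat 0.11, -0.10 and -0.08 there, with its own extremes of -0.24 at 0 h and 0.17 at 30 h, where 48 of 58 members lay above their mean (all 46.6%). For a single member the correlation between its 8 values in the first run and its 8 in the repeat had a median of 0.05 and was above 0 in 31 of 58 (all tested 58.5%, median 0.09).

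The subunits were compared by their medians. The median of the large minus that of the small subunit lay between -0.05 and 0.05 in the 8 pools, a range of 0.10. Within a run the gap was wider, from -0.13 to 0.15 in the first run and from -0.09 to 0.10 in its repeat. With 1 probe set per gene it ran from -0.16 at 12 h to 0.09 at 30 h. On single arrays the largest gap was -0.41, on first-run 36 h b, where the large subunit had -0.17 and the small 0.24.

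**Figure D2:**
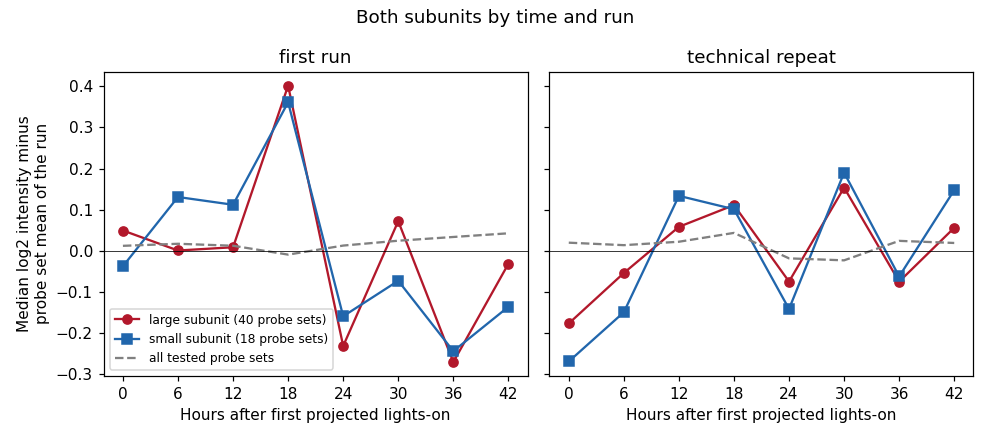
Median log2 intensity of the large (40 probe sets) and the small subunit (18) around the probe set means of the run, against hours after the first projected lights-on, with all 4370 tested probe sets dashed. In the first run both subunits peak at 18 h, at 0.40 and 0.36, and in the technical repeat both are lowest at 0 h, at -0.18 and -0.27.

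Whether the ribosomal proteins followed the time of day was asked with a cosine and sine of 24 h. limma called 0 of 58 members rhythmic at an adjusted p under 0.05, where 0 of 4370 tested probe sets (0%) passed, and 1 member had an unadjusted p under 0.05, against 6.36% of all tested. The amplitude, the log2 distance from the fitted mean to the peak, had a median of 0.16 over the members and 0.16 over all tested probe sets, 0.14 in the large and 0.19 in the small subunit. The smallest adjusted p of a member was 0.746.

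Rpl17, a protein of the peptide exit tunnel, was the member with the smallest p. Its intensities were 166, 185, 267 and 107 at CT 0, 6, 12 and 18 of the first day and 192, 336, 296 and 194 on the second. It was thus higher at CT 12 than at CT 0 on both days, and lowest at 18 h. The fitted amplitude was 0.51 ± 0.17 (SE, n = 8 pools) and the fitted peak fell at CT 8.65 (adjusted p = 0.746 in limma; p = 0.184 when the pools were permuted over time in an exact test). The 18 h value rested on the first-run array, at 52.3, since the repeat read 220 there. Without that array, with the pool at its repeat value, the amplitude was 0.35. That amplitude also holds the difference of Rpl17 between the runs, 0.24 ± 0.23 (SE) for repeat minus first run.

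Rps6 had its fitted peak near projected lights-on. Probe set M29358_at read 2789 and 2397 at CT 0, 2292 and 2420 at CT 6, 1851 and 1818 at CT 12 and 2263 and 2525 at CT 18, so that both CT 12 pools lay below all others. Its fitted curve peaked at CT 23.8 and its amplitude was 0.25 ± 0.09 (SE, n = 8; adjusted p = 0.746 in limma), and the exact permutation p was 0.0286, where 315 distinct arrangements set the smallest possible p to 0.00317. At 36 h this probe set read 1975 and 774 on first-run arrays a and b and 2672 in the repeat, so the low pool leaned on array b. With arrays b left out the amplitude was 0.19. The other Rps6 probe set, M29358_g_at, peaked at CT 15.0 with an amplitude of 0.11, and over the 16 run means the probe sets correlated at -0.52. The exact p is that of a probe set picked from 58 for its small p, and it was not adjusted for that choice.

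Single probe sets of Rpl3, which lies near the site of peptide bond formation, and of Rpl21 had fitted peaks near the projected onset of night. One Rpl3 probe set (rc_AA892367_i_at) peaked at CT 11.4 and its amplitude was 0.26 ± 0.10 (SE, n = 8; adjusted p = 0.759 in limma, exact permutation p = 0.0984), and one of Rpl21 (rc_AA849648_at) at CT 11.6, with 0.30 ± 0.12 (adjusted p = 0.764, exact permutation p = 0.149). With quantile normalization the amplitude of the Rpl3 probe set was 0.14. The second Rpl3 probe set peaked at CT 23.6 with an amplitude of 0.13. The Rpl21 probe set peaked at CT 11.1 in the first run and CT 17.9 in the repeat, with amplitudes of 0.62 and 0.09, and the 3 other Rpl21 probe sets peaked at CT 11.7, CT 16.3 and CT 20.1.

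**Figure D3:**
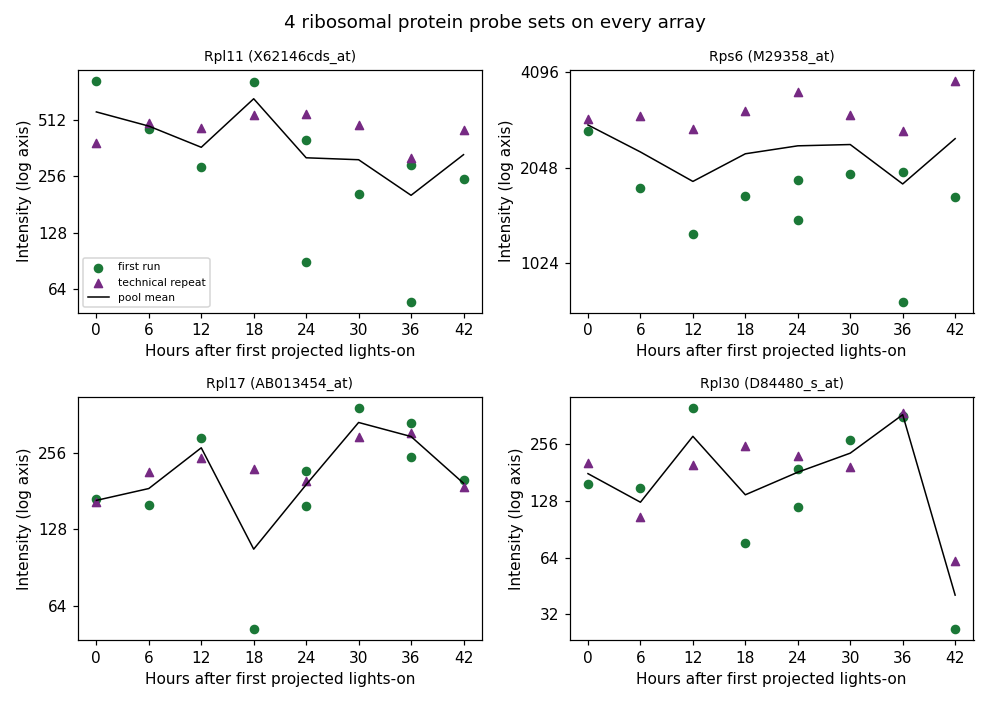
Intensity (log axis) of 4 ribosomal protein probe sets against hours after the first projected lights-on; circles are first-run arrays, triangles technical repeat arrays and the line the pool means. Rpl30 is low at 42 h in both runs, at 26.8 and 61.1, and the circles of Rps6, at 774 to 2665, lie under its triangles, at 2672 to 3845.

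Projected lights-off was compared with projected lights-on as CT 12 minus CT 0. Of the 58 members, 36 were higher and 22 lower at CT 12 (all tested: 51.1% higher), with a median difference of 0.05 on the log2 scale against 0.01 over all tested, 0.01 in the large and 0.15 in the small subunit. limma called 0 members (all tested 0%), and at an unadjusted p under 0.05 it gave 3 higher (all 4.19%) and 1 lower (all 4.49%). The member median was 0.00 within the first run and 0.16 within the repeat, where 44 of 58 were higher (all 54.0%). It was 0.21 without the 36 h pool, -0.01 without the 24 h pool and -0.03 with every array scaled to a common median.

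The 4 members with the smallest p were Rps6, Rpl3, Rpl22 and Rpl21. Rpl22, a large-subunit protein whose place a paralog can take, read 11375 and 13687 at CT 0 and 17852 and 17035 at CT 12. The difference was 0.48 ± 0.20 (SE, n = 8, adjusted p = 0.559 in limma), 0.57 in the first run and 0.39 in the repeat. The Rpl3 probe set read 19340.3 and 20204 at CT 0 and 30722 and 26256 at CT 12, a difference of 0.52 ± 0.20 (adjusted p = 0.549), with 0.63 and 0.41 in the runs. With quantile normalization the differences were 0.28 for Rpl22 (adjusted p = 0.682 in limma) and 0.24 for Rpl3 (adjusted p = 0.802). The other Rpl3 probe set differed by -0.26. Rps6 differed by -0.50 ± 0.18 (adjusted p = 0.514; -0.73 and -0.26 in the runs, and 0.16 in its other probe set). Rpl21 differed by 0.61 ± 0.25 (adjusted p = 0.559), 1.21 in the first run and 0.01 in the repeat, and its 3 other probe sets by 0.50, 0.12 and -0.12. None of the 4 was called.

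The middle of subjective day against the middle of subjective night, CT 6 minus CT 18, gave 20 members higher and 38 lower (all tested: 52.9% lower) and a median of -0.07 (all -0.02). limma called 0 members, 1 of 4370 probe sets in all (0.0229%); 1 member was higher at an unadjusted p under 0.05 (all 1.88%) and 0 were lower (all 2.38%). This median changed sign with the 18 h pool. It was 0.08 without that pool and 0.06 with the pool read by its technical repeat array alone. That last value also holds the difference between the runs, since the members' median was lower in the repeat and the other pools kept both runs.

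The members with the smallest p were Rpl17, Rps15, Rps24 and Rpl30, each with an adjusted p of 0.968 in limma. Rpl17 differed by 0.79 ± 0.34 (SE, n = 8), and by 0.27 without the first-run 18 h array, a value that also holds its run difference. Rps15, which reaches toward the decoding site of the small subunit, differed by -0.41 ± 0.19 on one of its 3 probe sets (rc_AA892895_r_at) and by -0.47 and -0.33 on the others. Its probe sets thus had the same sign with the runs averaged. In that order they differed by -0.14, -0.86 and -0.68 in the first run and by -0.69, -0.09 and 0.02 in the repeat. Rps24, needed for processing of the small subunit's RNA, differed by 0.86 ± 0.47, and by 0.23 without the 18 h pool. Within the runs it differed by 1.42 in the first and 0.31 in the repeat, whose arrays all read it below the filter level. Rpl30, a large-subunit protein, differed by 1.19 ± 0.68, and by 0.04 without the 42 h pool. Its difference was 2.16 in the first run and 0.21 in the repeat.

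The second day of constant darkness against the first was, of the comparisons over time, the one in which the members' median lay farthest from that of all tested probe sets. Of the 58 members, 46 were lower and 12 higher on day 2, where 49.7% of all tested probe sets were lower, and the median difference was -0.13 on the log2 scale (all 0.00), -0.13 in the large and -0.18 in the small subunit. limma called 0 members (all tested 0%). At an unadjusted p under 0.05, 6 members were lower (all 2.06%) and 1 higher (all 1.90%). Without the first-run 18 h array the median was -0.06, a value that again holds the run difference, without the 18 h pool it was -0.03 with 36 of 58 lower (all 52.0%), and without the 36 h pool -0.08.

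The day difference was also taken within each run. In the first run 51 of 58 members were lower on day 2 (all tested 45.5%) with a median of -0.34, and 45 of 58 with a median of -0.22 (all 48.4%) when the 18 h point was left out. In the repeat 22 of 58 were lower (all 54.6%) with a median of 0.06. Fitted as a difference between the runs (repeat minus first run), the day term was positive in 50 of 58 members (all 42.3%) with a median of 0.37 (all -0.06). limma called 0 members in that test, and 7 of 58 had an unadjusted p under 0.05 (all 4.71%). The summed microglia and immune markers of the pools were 855 to 1079 on day 1 and 869 to 1113 on day 2, and the pan-neuronal sum 12649 to 15617 and 14024 to 16015. The SCN neuron sum was 12483 to 15118 on day 1 and 11691 to 12149 on day 2, the one of the 8 lists whose days did not overlap. The part of these sums in the day difference was not tested.

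Rpl11, which binds the 5S RNA together with Rpl5 and, when free, the p53 regulator Mdm2, had the smallest p of the members. Probe set X62146cds_at read 565, 474, 366 and 664 in the pools of day 1 and 321, 314, 202 and 334 in those of day 2. The days did not overlap, and the difference was -0.81 ± 0.17 (SE, n = 8; adjusted p = 0.997 in limma). It was -1.55 within the first run and -0.08 within the repeat, a difference between the runs of 1.47 ± 0.34 (unadjusted p = 0.00205, adjusted p = 0.944 in limma). In the first run arrays a and b read 88.8 and 398 at 24 h and 54.7 and 295 at 36 h. The second Rpl11 probe set, X62146cds_g_at, differed between the days by -0.03.

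Rpl19l4, a copy of Rpl19, differed by -0.69 ± 0.23 (SE, n = 8), with -0.51 in the first run and -0.86 in the repeat. It was the one of the 4 leading members with a difference of this size in both runs. Rpl17 differed by 0.52 ± 0.18, with 0.83 and 0.21 in the runs. Rps10, which sits where the message enters the small subunit, differed by -0.43 ± 0.17, with -0.96 in the first run and 0.11 in the repeat. Rps29, a zinc-binding protein of the small subunit, differed by -0.37 ± 0.15 and -0.41 ± 0.18 on its 2 probe sets, with -0.64 and -0.91 in the first run and -0.10 and 0.08 in the repeat. Its second probe set (X59051cds_s_at) read 2787 and 14459 on arrays a and b of 24 h and 2150 and 17841 on those of 36 h. The adjusted p was 0.997 in limma for each of these.

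**Figure D4:**
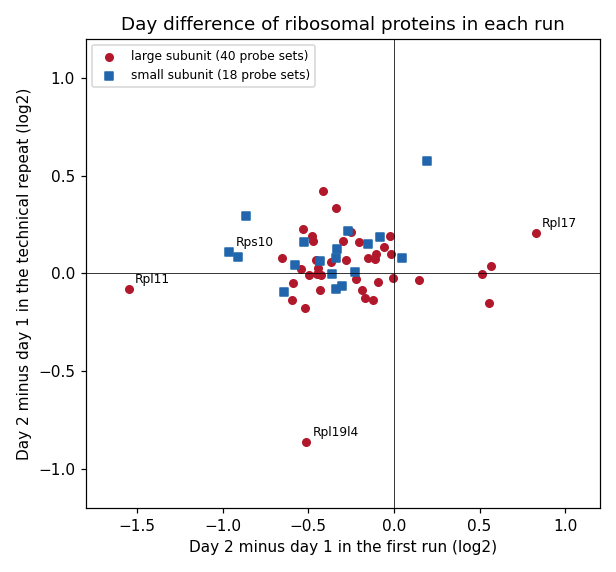
Day 2 minus day 1 on the log2 scale for each of the 58 members, in the first run (x axis) and the technical repeat (y axis). Most points lie left of 0, 51 of 58, while they scatter around 0 on the y axis, with 22 of 58 below it.

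Differences among the 8 pools, tested against the disagreement of the runs, were called in 0 of 58 members (1 of 4370 in all, 0.0229%), and 2 had an unadjusted p under 0.05 (all 5.93%). This test has array error alone and says nothing of the spread between rats. Rpl30 had the largest range, from 367 at 36 h to 40.5 at 42 h, a log2 range of 3.18 (adjusted p = 0.582 in limma). The low value was read in both runs, at 26.8 and 61.1, and without the 42 h pool the range was 1.54. Rps16, which touches the transfer RNA in the small subunit, ran from 7897 at 0 h to 12126 at 18 h, a range of 0.62 (adjusted p = 0.768), and its 8 values correlated at 0.82 between the runs. Rpl3 (rc_AA892367_i_at) had a range of 0.67 and Rpl17 of 1.65.

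Other named members showed no call over time. Rplp0, which anchors the stalk that recruits elongation factors, read 3459, 3422, 4977 and 4758 on day 1 and 3562, 4905, 3925 and 3921 on day 2, with an amplitude of 0.17 and a day difference of -0.02. Rpsa, also known as the laminin receptor precursor, had day differences of -0.18 and -0.27 on its 2 probe sets (-0.52 and -0.58 in the first run, 0.16 and 0.05 in the repeat) and CT 12 minus CT 0 differences of 0.32 and -0.20. The probe sets of a gene often disagreed. Over 22 pairs of probe sets of 15 genes, the median correlation over the 16 run means was 0.39, from -0.52 (Rps6) to 0.95 (Rps29), and 20 pairs were above 0. Their day difference had the same sign in 14 of 22 pairs and their CT 12 minus CT 0 difference in 12.

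Between the runs, by contrast, many members were called. limma called 24 of 58 members for technical repeat minus first run (all tested 48.4%), 4 higher (all 20.9%) and 20 lower (all 27.5%), with a member median of -0.23 against -0.06 for all. With every array scaled to a common median, 12 were higher and 11 lower (all 38.4% and 13.6%), with a member median of 0.07 and a median of all tested of 0.24. Quantile normalization gave 4 higher and 20 lower (all 24.6% and 22.4%), with a member median of -0.16 and a median of all tested of 0.03. The member median thus lay 0.17 below that of all tested as deposited and 0.19 below with quantile normalization; scaling to a common median cannot change this distance.

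Rps24 read 47.1 to 1108 on the 10 arrays of the first run and 30.5 to 110 on the 8 of the repeat. Every repeat array was below the filter level of 121, so Rps24 passed the filter through the first run alone. Its difference between the runs is therefore given no test here, although it is 1 of the 20 counted as lower. Rpl4, another protein of the exit tunnel, was higher in the repeat, from 851 to 3395 in the first run to 4496 to 5888 in the repeat, a difference of 1.09 ± 0.17 (SE, 8 pools read in both runs; adjusted p = 0.0004 in limma). Its runs did not overlap. Rps6 (M29358_at) differed by 0.87 ± 0.14 (adjusted p = 0.000397), with 774 to 2665 in the first run and 2672 to 3845 in the repeat, while its other probe set differed by -0.25. One Rps15 probe set (rc_AA892895_i_at) differed by -0.98 ± 0.16 (adjusted p = 0.000488), another by -1.19 and the third by 0.20. The probe sets of Rpl4, Rps6 and Rps15 named here kept direction and call under the 3 scalings. Rplp0 differed by -0.59 and Rpsa by -0.94 and -0.60 (adjusted p = 0.00279, 0.000872 and 0.0449).

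**Figure D5:**
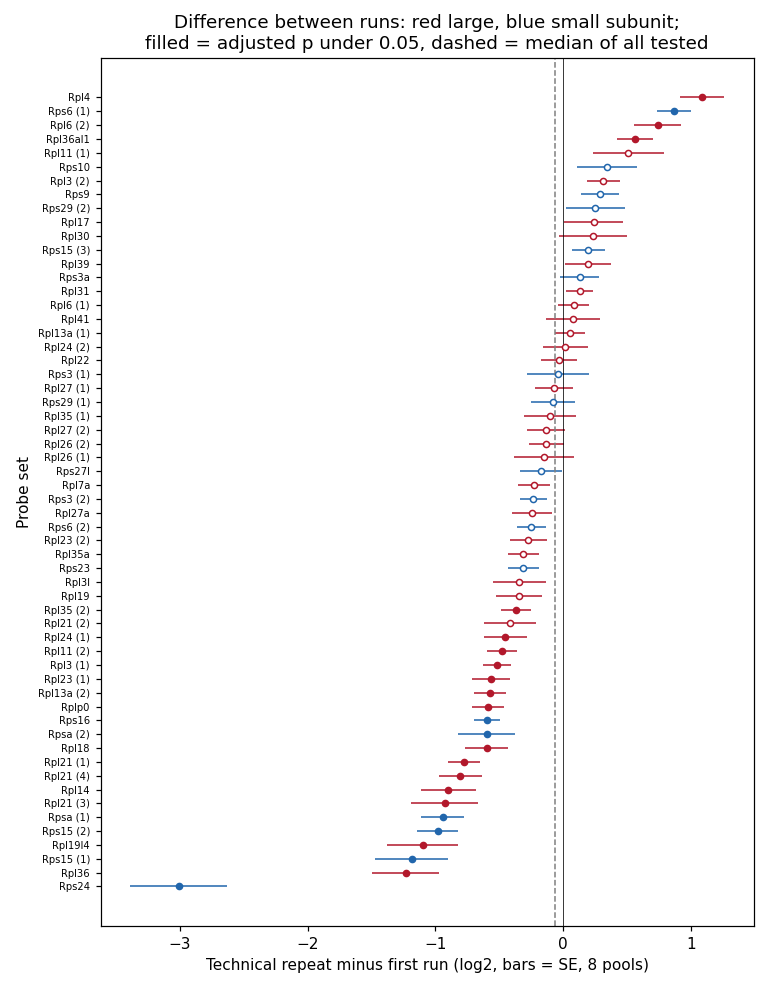
Technical repeat minus first run on the log2 scale with its SE for the 58 members (red large, blue small subunit; filled where limma's adjusted p is under 0.05; dashed line at the median of all tested, -0.06). The 20 members filled to the left of 0 include Rps24, whose repeat arrays all lay below the filter level, and 4 are filled to the right.

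Other genes of protein synthesis gave no call in the rhythm test either. Of the initiation and elongation factors, 34 probe sets were tested, 0 were called and 3 had an unadjusted p under 0.05, with a median amplitude of 0.16. Eif3m, a subunit of the initiation factor that holds the small subunit, peaked at CT 23.9 and its amplitude was 0.34 ± 0.09 (SE, n = 8), and Eif2ak3, a kinase that lowers initiation under stress, peaked at CT 5.65 with 0.36 ± 0.12 (adjusted p = 0.746 in limma for both). Their median CT 12 minus CT 0 difference was -0.12, where that of the ribosomal proteins was 0.05. Of 14 tested probe sets of other transcripts with a TOP start, 0 had an unadjusted p under 0.05; Eef2, the translocation factor, peaked at CT 14.2 with an amplitude of 0.22, and Nap1l1, a histone chaperone, had an amplitude of 0.18. Of 8 probe sets of mTOR and S6 kinase signalling and 6 of ribosome assembly, 0 had an unadjusted p under 0.05; Eif4ebp1, an mTOR target that blocks initiation, had an amplitude of 0.33, Rheb, the activator of mTOR, 0.19, Nolc1 0.30 and Nop58 0.26.

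Other large sets had day medians near 0. The median of day 2 minus day 1 was -0.01 over 43 proteasome probe sets, 0.00 over 80 of the respiratory chain and ATP synthase and 0.00 over 13 mitochondrial ribosomal proteins, against -0.13 for the cytosolic ones. For the run difference the proteasome lay at -0.25, the respiratory chain at -0.13 and the mitochondrial ribosome at -0.39. In the rhythm test 0 of 43, 6 of 80 and 0 of 13 had an unadjusted p under 0.05 and none was called. The genes with the smallest p were Psma2 and Psma7 of the proteasome core (amplitudes 0.27 and 0.27), Cox6c and Cox4i1 of cytochrome c oxidase (0.37 and 0.38, peaks at CT 12.5 and CT 12.2), and Mrpl38 and Mrps14 of the mitochondrial ribosome (0.21 and 0.30). These differences between gene sets were not tested.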

How the data were processed

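The labels describe rat SCN RNA on rat U34A GeneChips. The deposited values are probe set intensities on a linear scale, already scaled per array by the authors (the mean after trimming 2% at each end was 500.7 to 500.8 on all 18 arrays); the algorithm that summarised the probes is not given in the sources used here. They were kept as deposited, floored at 12.1 (the 10th percentile) and transformed to log2. Then arrays a and b (assumed to read 1 pool) were averaged, and after them both runs. Between arrays a and b the median absolute log2 difference of members was 0.46 at 24 h and 0.63 at 36 h (all tested 0.43 and 0.52). For members the median SD of 1 run mean around its pool was 0.34, and that of the 8 pool means 0.25 (all tested 0.30 and 0.23). Of 8799 probe sets, 59 controls were left out and 4370 above the median of the mean level were tested. In the annotation 7006 had 1 symbol, 308 several and 1426 none.

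Fits used limma 3.58.1 in R 4.3.3 with Benjamini-Hochberg adjustment over the 4370 and a threshold of 0.05: cosine and sine of 24 h on 8 pool means (5 residual and 5.13 prior degrees of freedom), a day term added to it, and time point plus run on the 16 run means. Since each time point is 1 pool, a p-value of the cosine, sine and day terms reflects how the 8 pools scatter around a curve. One of the fit on run means reflects how arrays differ. For time of day and day the number of pools is the limit, and more arrays of the same pools would add no rats. The fits were tested on simulated data with known added differences. How many of those were called is not given here, so a lack of calls does not show that a difference was absent. The members, gene lists and comparisons were chosen with earlier results of these data known. Named are, for each fit, the 4 member genes with the smallest p, with Rplp0, Rpsa, Rps6 and Rpl11, and 2 genes of each other list by the rhythm p; Rps29, Rpl5 and the genes of the promoter lines were added after their values were seen. Alternatives were other scalings, filters, floors, runs, arrays, pools and probe set choices. Promoter sequences are RefSeq's, matched by gene number.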

Additional observations from a re-analysis of the deposited data

Results flagged for a closer look

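Among 36 groups of 4 to 10 values examined for a value far from the rest, 4 had one. A share of 0.05 would be 1.8 groups, but that is no chance expectation here. The single probe sets among the groups were picked for a small p in these data, and the medians of members and subunits share arrays. In the first run, the median of the ribosomal protein probe sets on the 18 h array was 0.47 on the log2 scale above the member means, apart from the 9 other arrays. Within the second day, the 36 h pool was the low one for Rps6 (probe set M29358_at, log2 intensity 10.83) and for Rpl11 (X62146cds_at, log2 intensity 7.66). Within the same day, the 30 h pool was the high one for Rps16, at a log2 intensity of 13.43.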

How the results depend on the processing

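The counts of members called in the rhythm, CT 12, CT 6 and day comparisons and among pools were 0 under every alternative run, and the 4 members with the smallest p in each comparison kept their direction under the alternatives run for them except Rps10, whose day difference was 0.11 in the technical repeat alone. Rps29, Rpsa and Rplp0 were not among these. The median amplitude was 0.24 in the first run alone. The median day difference was -0.34 in the first run alone and 0.063 in the repeat alone, and leaving out each pool in turn gave -0.21 to -0.03. The median CT 12 minus CT 0 difference ran from -0.0061 to 0.21 when a pool was left out (0.21 without 36 h), and that of CT 6 minus CT 18 from -0.20 to 0.08. The run difference had a median of 0.067 with arrays scaled to a common median. When the 36 tested probe sets of several ribosomal symbols were counted with the 58 members, 38 were called (all tested 48.4%). That alternative was chosen after seeing the data. The range of the large minus small difference was 0.25 with 1 probe set per gene, 0.28 in the first run and 0.19 in the repeat. With the run as a replicate block and the pool as a random block, the rhythm's median amplitude was 0.16 and 0 members were called, and the block changed no call; both runs read the same 8 pools per the labels. Low signal limits Rps24, Rpl30, Rpl36, Rpl17 (52.3 on the first-run 18 h array) and Rpl11 (X62146cds_at, 88.8 and 54.7 on arrays a of 24 h and 36 h), whose intensities lay under the filter level on some arrays.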
